A study of Mus musculus with 8 samples.

Results

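Synaptotagmins are vesicle and membrane proteins with paired C2 domains, and 10 of their genes were followed here in nuclei of cortical GABAergic neurons that did or did not express a mutant receptor for thyroid hormone. The 10 genes, Syt1, Syt2, Syt4, Syt5, Syt6, Syt7, Syt9, Syt10, Syt11 and Syt17, were picked by gene symbol out of the 55450 genes in the count tables. Each symbol belonged to 1 gene identifier, and all 10 genes passed the filter on low counts. Nuclear RNA was sequenced from fluorescent nuclei sorted from single cortices of juvenile mice. Control mice were Thra+/+. Mutant mice were Thra+/AMI, in which a dominant-negative form of the receptor is expressed after Cre recombination. A Cre driver limited both this mutation and a nuclear fluorescent reporter to GABAergic neurons, and the reporter was used to sort nuclei in both groups. The gene that drives Cre, the strain and the exact age are not given in the sources used here. Samples are labelled controls 1 to 4 and mutants 6, 7, 8 and 10. The table of mutant 10 held the same count as that of mutant 7 in all 55220 genes compared, which is less than sampling noise would give, and the pair was counted as 1 sample. It is called mutant 7 here, although which of both animals gave these counts is not known. The comparison was therefore between 4 controls and 3 mutants.

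In the calcium-binding synaptotagmins the C2 domains bind calcium and membrane lipids, which couples calcium entry at a nerve terminal to the fusion of vesicles by SNARE proteins. Syt1, Syt2 and Syt9 are the fast sensors that trigger synchronous transmitter release, Syt7 is a slower sensor of high affinity tied to asynchronous release and facilitation, and Syt4 and Syt11 have a first C2 domain that does not bind calcium. In the cortex Syt1 is found in most neurons, whereas Syt2 marks the terminals of parvalbumin basket cells.

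Total counts were 10747169 to 13804734 per library and overlapped between the groups. A gene was called where its adjusted p was under 0.05 in edgeR's quasi-likelihood test with Benjamini-Hochberg adjustment over the 16448 tested genes, and every adjusted p below is from this test unless another tool is named. The share of tested genes called was 9.42%, with 4.63% called higher and 4.78% called lower in mutants, and the median log2 fold change of all tested genes was -0.01. Levels are given in CPM, the reads of a gene per 1000000 reads of its library after scaling the library size by its TMM factor, with the SD over 4 controls or 3 mutants after ±. Thra itself, at 114 ± 9.35 CPM in controls and 87.5 ± 9.39 CPM in mutants, was not called (log2 fold change -0.39, adjusted p 0.0543). Its counts add both alleles. Markers of the labelled cell type were present: Gad1, an enzyme of GABA synthesis, stood at 569 ± 63.2 CPM among controls against 637 ± 43.9 CPM among mutants (adjusted p 0.581). Slc17a7, a vesicular glutamate transporter that marks glutamatergic neurons, was present too, at 72.2 ± 21.4 and 67.2 ± 18.4 CPM. Control 4 and mutant 8 had 4 and 3 reads of 4 Y-linked genes against 5094 to 6644 in the other 5 libraries.

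Among the fast sensors, Syt2 fell 4.54-fold in the mutants while Syt1 and Syt9 were not called. Promoter windows of Syt2 and Syt1 are printed here to show the pair, from 250 bases before to 50 bases after an annotated start site, 5′ to 3′, taken from RefSeq (build GRCm38.p6). Capitals mark AGGTCA, the half-site that thyroid hormone receptors are known to bind, or TGACCT where it lies on the other strand.
Syt2 window 1, chr1:134646362-134646661, plus strand: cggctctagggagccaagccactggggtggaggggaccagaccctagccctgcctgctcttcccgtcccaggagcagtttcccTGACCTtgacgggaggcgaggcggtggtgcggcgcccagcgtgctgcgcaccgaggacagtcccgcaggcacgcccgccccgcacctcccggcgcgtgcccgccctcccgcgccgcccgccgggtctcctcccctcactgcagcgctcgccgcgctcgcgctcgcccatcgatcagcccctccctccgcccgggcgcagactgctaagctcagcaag
Syt2 window 2, chr1:134709050-134709349, plus strand: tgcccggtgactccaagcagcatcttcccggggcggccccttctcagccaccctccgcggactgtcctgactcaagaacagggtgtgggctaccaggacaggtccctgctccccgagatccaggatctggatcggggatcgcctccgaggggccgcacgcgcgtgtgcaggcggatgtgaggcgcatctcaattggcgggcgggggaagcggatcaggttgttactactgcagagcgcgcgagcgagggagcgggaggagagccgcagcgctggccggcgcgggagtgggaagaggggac
Syt1 window 1, chr10:109010926-109011225, minus strand: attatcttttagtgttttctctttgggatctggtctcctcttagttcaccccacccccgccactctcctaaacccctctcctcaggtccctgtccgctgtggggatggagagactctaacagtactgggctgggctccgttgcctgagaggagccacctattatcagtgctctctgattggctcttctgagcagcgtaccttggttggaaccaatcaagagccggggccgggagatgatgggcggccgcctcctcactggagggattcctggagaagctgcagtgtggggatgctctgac
Syt1 window 2, chr10:109009062-109009361, minus strand: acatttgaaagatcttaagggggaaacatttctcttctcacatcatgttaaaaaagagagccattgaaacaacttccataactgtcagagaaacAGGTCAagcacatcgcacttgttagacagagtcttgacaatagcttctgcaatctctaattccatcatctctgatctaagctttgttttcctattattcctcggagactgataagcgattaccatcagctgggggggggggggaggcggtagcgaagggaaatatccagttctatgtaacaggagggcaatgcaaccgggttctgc
The half-site was present in window 1 of Syt2, starting 167 bases before the start site, and in window 2 of Syt1, starting 156 bases before it. The same letters were found in 16.3% of all 32851 windows of this length in the table. The direct repeat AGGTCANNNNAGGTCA, searched on both strands, contains the half-site and was found in 5 of all windows. None of the windows examined for the 10 genes held it. Windows were matched by symbol for 6 of the 10 genes. None was found for Syt5, Syt7 and Syt17. Windows on the chromosome of Syt4 were left out of the search, so Syt4 was not examined. Those of Syt9, Syt10 and Syt11 did not hold the half-site, and in Syt6 a single site lay in both overlapping windows of its 3.

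Syt2 (ENSMUSG00000026452.15, GRCm38 chromosome 1, 134646677 to 134762593, plus strand) was at 52.0, 54.4, 56.9 and 85.7 CPM in controls 1 to 4 and at 13.7, 12.03 and 15.3 CPM in mutants 6, 7 and 8. The lowest control thus lay far above the highest mutant, and control 4 was the highest of all. These values rested on 656 to 1063 reads per control library and 131 to 196 per mutant library. Syt2 had a log2 fold change of -2.18 (SE 0.19, 95% interval -2.60 to -1.77, adjusted p 3.55e-05), larger than the spread between replicates. In bulk nuclei, fewer cells of the type that carries a gene and less RNA in each such cell cannot be told apart.

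Syt1 (ENSMUSG00000035864.14, GRCm38 chromosome 10, 108497650 to 109010982, minus strand) was the most abundant of the 10 genes in reads. It was at 1359, 1923, 1652 and 2707 CPM in controls 1 to 4 and at 2056, 2043 and 1918 CPM in mutants 6, 7 and 8. All 3 mutants lay inside the range of the controls, whose own spread was 579 CPM (SD, n = 4) against 76.2 CPM (SD, n = 3) in mutants. Its log2 fold change of 0.07 had an SE of 0.23 and an adjusted p of 0.906, and the 95% interval ran from -0.44 to 0.58, so a change of the size seen in Syt2 lay outside it.

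The ratio of Syt2 to Syt1 inside a library does not depend on scaling between libraries. On the log2 scale, with each gene's counts divided by its exon length, controls 1 to 4 gave -4.58, -5.02, -4.73 and -4.85, whereas mutants 6, 7 and 8 gave -7.10, -7.28 and -6.84. The 2 groups did not overlap, and control 4, the highest library for each gene alone, was not set apart in the ratio. Syt1 exceeded Syt2 per exon length by 23.9-fold to 32.4-fold in controls and by 114.6-fold to 155.7-fold in mutants. The size of this gap depends on the length used, but the difference between groups does not. Syt1 spans 513 kb and Syt2 116 kb, and the gap was smaller per genomic span. Mean levels per span, in the TPM explained below, were 68.5 for Syt1 and 9.83 for Syt2 in controls. In mutants they were 72.8 and 2.20. By exon length, the mean log2 ratio was -4.80 ± 0.18 (SD, n = 4) in controls and -7.08 ± 0.22 (SD, n = 3) in mutants, a difference of -2.28 for mutants minus controls. It is given as a description, with no test, because the pair was chosen with earlier results of these data known.

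**Figure D1:**
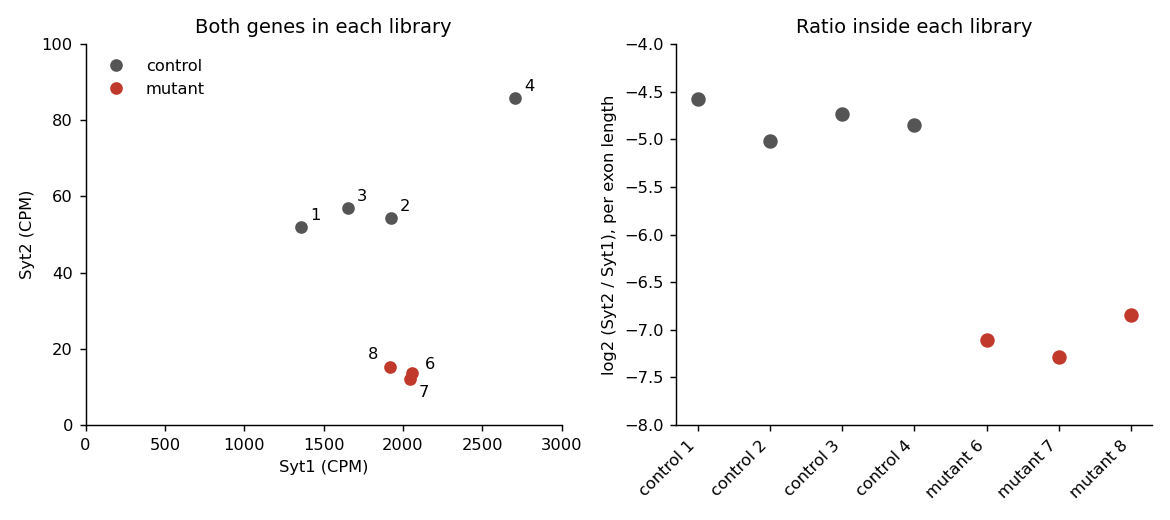
Left, Syt2 against Syt1 in CPM, with 1 point per library labelled by its number (grey, control; red, mutant). Right, the log2 ratio of Syt2 to Syt1 per exon length in each library: the controls lie between -5.02 and -4.58 and the mutants between -7.28 and -6.84.

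Syt9 (chromosome 7, 107370728 to 107548656), the remaining fast sensor, was the least abundant of the 10 genes per length. It was at 3.57, 3.40, 3.50 and 5.89 CPM in controls 1 to 4 and at 5.16, 5.42 and 6.33 CPM in mutants 6, 7 and 8, from 45 to 81 reads per library. Controls 1 to 3 lay below every mutant, and control 4 lay among the mutants. Its log2 fold change was 0.46 (SE 0.25, adjusted p 0.314), with a 95% interval from -0.09 to 1.02. It was called with limma-voom and sample quality weights (log2 fold change 0.65, adjusted p 0.0385) and in no other alternative run.

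Syt5, Syt10 and Syt17 rose in the mutants, by 1.92-fold, 2.16-fold and 1.96-fold. Syt5 (chromosome 7, 4539765 to 4547541), a sensor linked to vesicle and dense-core granule secretion, was at 39.9, 36.3, 36.2 and 25.2 CPM in controls 1 to 4 and at 66.7, 69.1 and 62.8 CPM in mutants 6, 7 and 8. Every mutant exceeded every control, with a log2 fold change of 0.94 (SE 0.15, 95% interval 0.63 to 1.26, adjusted p 0.00159).

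Syt17 (chromosome 7, 118380717 to 118448222), a synaptotagmin of membrane trafficking that lacks the transmembrane segment of its relatives, was at 54.1, 46.6, 41.9 and 52.7 CPM in controls 1 to 4. In mutants 6, 7 and 8 it was at 109.6, 87.9 and 90.3 CPM. The groups did not overlap, and mutant 6 was the highest. Syt17 had a log2 fold change of 0.97 (95% interval 0.70 to 1.24, adjusted p 0.000449), and its SE of 0.12 was the smallest among the 10 genes.

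Syt10 (chromosome 15, 89782393 to 89841860), a sensor known for the release of insulin-like growth factor 1 in the olfactory bulb, was at 4.28, 4.53, 2.89 and 5.08 CPM in controls 1 to 4 and at 7.35, 9.36 and 10.5 CPM in mutants 6, 7 and 8. The groups did not overlap, but the values rested on 38 to 134 reads per library. Its log2 fold change was 1.11 (SE 0.23, 95% interval 0.60 to 1.62, adjusted p 0.0108). The call was lost without mutant 7 (log2 fold change 1.09, adjusted p 0.054) and without mutant 8 (log2 fold change 1.00, adjusted p 0.0691).

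Syt6 (chromosome 3, 103575231 to 103645569), a relative of Syt10 best known from the sperm acrosome, was not called. It was at 25.5, 31.4, 26.6 and 42.1 CPM in controls 1 to 4 and at 28.6, 22.7 and 28.0 CPM in mutants 6, 7 and 8. The groups overlapped, and the log2 fold change was -0.25 (SE 0.18, adjusted p 0.476, 95% interval -0.64 to 0.14). The interval of Syt10 lay wholly above that of Syt6, and the difference between both genes was not tested.

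Syt7 (chromosome 19, 10389090 to 10453180), the slow sensor, was at 99.0, 130, 133 and 185 CPM in controls 1 to 4 and at 101, 116 and 117 CPM in mutants 6, 7 and 8. The mutants lay within the range of the controls. Its log2 fold change was -0.29 (SE 0.17, adjusted p 0.362), with a 95% interval from -0.67 to 0.09.

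Syt4 and Syt11, the pair whose first C2 domain does not bind calcium, were not called. Syt11 (chromosome 3, 88744700 to 88775164) was at 326.5, 270.2, 282.8 and 266.2 CPM in controls 1 to 4 and at 238.1, 300.5 and 276.7 CPM in mutants 6, 7 and 8. The groups overlapped, and the log2 fold change was -0.08 (SE 0.13, adjusted p 0.805, 95% interval -0.36 to 0.21). Syt4, an activity-regulated member, was at 41.2, 34.1, 30.2 and 25.5 CPM in controls 1 to 4 and at 28.6, 48.5 and 38.7 CPM in mutants 6, 7 and 8. Mutant 7 was the highest and control 4 the lowest, with the rest mixed, and the log2 fold change was 0.23 (SE 0.19, adjusted p 0.537, 95% interval -0.18 to 0.65). Of the span of Syt4, 73.9% lies under Gm26658, a gene on the opposite strand, and genes that lie wholly under another gene were at 0 in every library, so reads from such shared stretches may be missing and the level of Syt4 is uncertain.

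**Figure D2:**
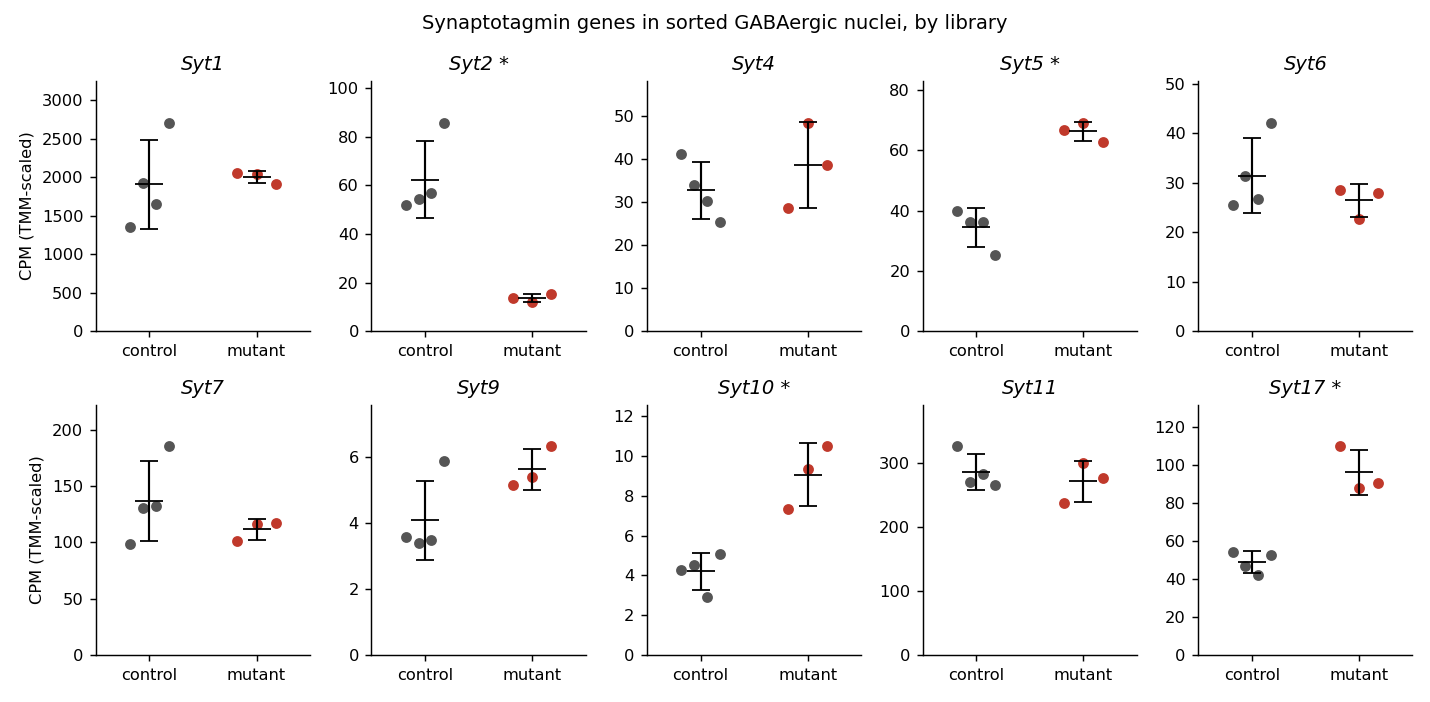
Level of each of the 10 genes in CPM scaled by TMM factors, with 1 point per library in order of library number, a bar at the group mean and whiskers of 1 SD. An asterisk marks the 4 genes called: Syt2 was lower in all 3 mutants than in any control, and Syt5, Syt10 and Syt17 were higher.

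Of the 10 genes, 4 were called, 1 lower and 3 higher, against 9.42% of all tested genes called in either direction. The 10 genes were chosen with earlier results of these data known, so the shares set side by side here are a description. The groups did not overlap in these 4 genes and overlapped in the other 6, where 22.0% of all tested genes did not overlap. With an absolute log2 fold change over 1 asked as well, 2 of the 10 were called, Syt2 and Syt10, against 3.9% of all tested genes. The median log2 fold change of the 10 genes was 0.15, beside -0.01 for all tested genes. The 4 calls held with DESeq2, with limma-voom, with an offset for gene length, without control 4 and mutant 8 and without controls 1 and 4. With the level of glutamatergic markers as a covariate all 4 were called as well.

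Compared per exon length (TPM, transcripts per 1000000), the 10 genes spanned a wide range in controls. Syt1 led at 1137 ± 319.6 TPM (SD, n = 4), followed by Syt11 at 274.5 ± 29.3 TPM and Syt7 at 90.8 ± 21.9 TPM. Syt5 (72.3 ± 14.4 TPM), Syt17 (46.7 ± 4.93 TPM), Syt4 (42.0 ± 8.99 TPM), Syt2 (40.5 ± 9.27 TPM) and Syt6 (26.7 ± 5.85 TPM) came next, and Syt10 (11.3 ± 2.35 TPM) and Syt9 (5.10 ± 1.37 TPM) were lowest. From Syt7 to Syt6, each neighbour in this order overlapped the next in range over the controls. The steps from Syt1 to Syt11, from Syt11 to Syt7, from Syt6 to Syt10 and from Syt10 to Syt9 did not overlap.

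In mutants Syt2 stood at 9.24 ± 1.16 TPM (SD, n = 3), in place 9 of 10 instead of 7, and its range overlapped that of Syt9 (7.31 ± 0.85 TPM). Syt5, at 143 ± 6.18 TPM, and Syt17, at 95 ± 11.3 TPM, passed Syt7 (76.9 ± 6.62 TPM). Syt10 rose to 25.4 ± 4.60 TPM, a range that overlapped that of Syt6 (23.4 ± 2.89 TPM). As a share of the summed TPM by exon length of the 10 genes, Syt1 held 64.2% ± 6.71 in controls (SD, n = 4) and 63.9% ± 1.73 in mutants (SD, n = 3), while Syt2 held 2.31% ± 0.19 and 0.48% ± 0.07. Both these shares and the order depend on the length used. Per genomic span, Syt11 (168 TPM) and Syt5 (78.6 TPM) came before Syt1 (68.5 TPM) in controls, and Syt1 spans 513 kb. Per span, Syt5 was above Syt7 in controls already (78.6 against 39.2 TPM). Syt17 stayed below Syt7 in mutants (26.5 against 32.4 TPM). The mutant ranges of Syt2 (1.93 to 2.44 TPM) and Syt9 (0.55 to 0.66 TPM) did not overlap per span. Neither did those of Syt10 (2.33 to 3.25 TPM) and Syt6 (5.99 to 7.65 TPM).

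**Figure D3:**
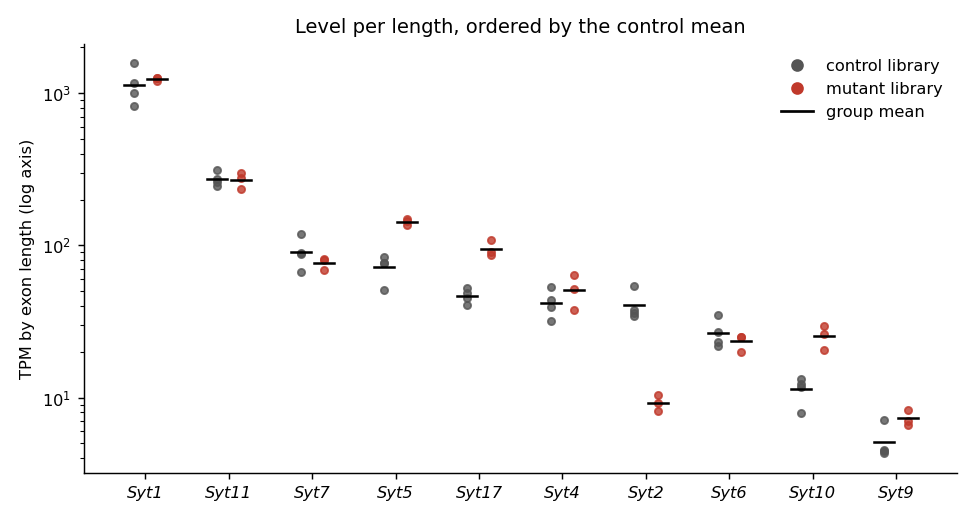
Level per exon length in TPM on a log axis, with 1 point per library (grey, control; red, mutant) and a line at each group mean, in the order of the control means. By exon length, Syt2 drops from 40.5 to 9.24 TPM, next to Syt9, and Syt5 and Syt17 move above Syt7. Per genomic span (not drawn), Syt5 is above Syt7 and Syt17 below it in both groups.

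The rest of the family was examined as 7 further synaptotagmin genes. Syt8 was listed at 0 in all 7 libraries, which allows up to 0.227 to 0.275 CPM per library (3 counts, on the same scale), and Syt15, at 0.23 to 1.11 CPM, did not pass the filter. Of the 5 tested, 3 were called lower and 1 higher, beside 4.78% and 4.63% of all tested genes. Syt3, a sensor of high affinity linked to the removal of AMPA receptors, fell from 93.4 ± 12.7 to 45.2 ± 0.33 CPM (log2 fold change -1.05 with an SE of 0.12, adjusted p 0.000252). Syt12 and Syt13, which lack calcium binding, fell from 19.0 ± 0.55 to 11.1 ± 1.89 CPM (log2 fold change -0.78, adjusted p 0.0088) and from 130 ± 8.41 to 90.9 ± 11.1 CPM (log2 fold change -0.52, adjusted p 0.0132). Syt16 rose from 101 ± 23.2 to 156 ± 10.2 CPM (log2 fold change 0.62, adjusted p 0.0244), and Syt14, at a log2 fold change of 0.13, was not called (adjusted p 0.583). Other genes share 27.8% of the span of Syt3 and 9.72% of that of Syt12.

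Of these 4 calls, 3 were lost in some of the fits that left out 1 library. Over all tested genes, 1549 were called with every library and 734 to 816 when 1 mutant was left out. The count was 1016 to 2347 when 1 control was left out. Syt12 was not called without mutant 7 (log2 fold change -0.65, adjusted p 0.058), and Syt13 was not called without control 3, mutant 6 or mutant 7, where it kept log2 values of -0.49, -0.45 and -0.49 (adjusted p up to 0.0893). Syt16 was called without control 1 or control 4 and lost without any 1 of the other 5 libraries, where it lay between 0.57 and 0.68 on the log2 scale (adjusted p up to 0.117). With the glutamatergic covariate its log2 fold change was 0.63 and its adjusted p 0.0503. Over the whole family, 8 of 15 tested genes were called, 4 in each direction, beside 9.42% of all tested genes called. The median absolute log2 fold change was 0.52, beside 0.21 for all tested genes.

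**Figure D4:**
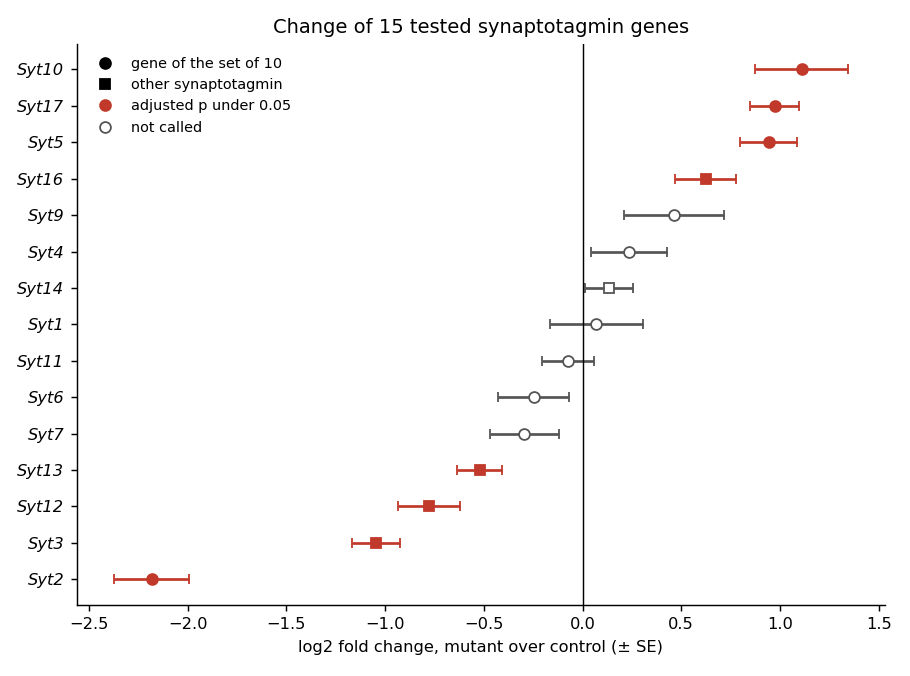
Fitted log2 fold change between mutants and controls with its SE for the 15 tested synaptotagmin genes (circles, the set of 10; squares, the other 5; red, adjusted p under 0.05; open, not called). Syt2 lies lowest at -2.18 and Syt10 highest at 1.11, with 4 called genes on each side of zero.

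Other proteins with C2 domains were read from a list of 12 genes, of which 9 were tested and 4 were called, all higher. Among all tested genes, 4.63% were called higher. Doc2a and Doc2b, soluble calcium sensors of spontaneous and asynchronous release, rose from 11.9 ± 3.76 to 26.1 ± 3.21 CPM (log2 fold change 1.13, adjusted p 0.00876) and from 8.02 ± 0.75 to 13.8 ± 1.68 CPM (log2 fold change 0.78, adjusted p 0.0131). Esyt3, a tether between endoplasmic reticulum and plasma membrane, rose from 4.11 ± 0.34 to 8.88 ± 0.78 CPM (log2 fold change 1.11, adjusted p 0.00351). Sytl5, a synaptotagmin-like partner of Rab27, rose from 24.5 ± 5.08 to 41.5 ± 5.57 CPM (log2 fold change 0.76, adjusted p 0.0153). The median of the 9 tested genes was 0.26, and 33.0% of the span of Doc2a is shared with other genes.

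Of 16 listed partners in vesicle fusion, all were tested, and 3 were called higher and 3 lower, beside 4.63% and 4.78% of all tested genes. The median log2 fold change of the 16 was -0.05. The core SNARE gene Snap25 was at 863 ± 85.7 CPM in controls and 864 ± 37.1 CPM in mutants (log2 fold change 0.00, adjusted p 0.997). Vamp1, a vesicle SNARE, fell from 170 ± 21.1 to 91.1 ± 11.7 CPM (log2 fold change -0.90, adjusted p 0.00119), with 40.5% of its span shared. Cplx1 and Cplx3, complexins that bind the SNARE complex beside synaptotagmin, fell with log2 fold changes of -0.81 (adjusted p 0.00534) and -1.39 (adjusted p 0.00817). Unc13b, a vesicle priming factor, rose by a log2 fold change of 1.15 (adjusted p 0.000134), Stx1a, a plasma membrane SNARE, by 0.51 (adjusted p 0.022), and Sv2c, a vesicle glycoprotein that binds synaptotagmin, by 0.43 (adjusted p 0.0381).

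Markers of cell classes moved beside Syt2, and their counts of calls stand beside 4.63% of all tested genes called higher and 4.78% called lower. Of 7 listed parvalbumin markers, 3 were called lower and 0 higher: Pvalb fell from 40.99 ± 5.91 to 1.81 ± 0.68 CPM, Akr1c18 from 10.6 ± 0.83 to 2.98 ± 0.41 CPM and Kcnc1 from 518 ± 88.4 to 195 ± 30.2 CPM, while Tac1, Pthlh, Kcns3 and Kcnc2 were not called. The summed level of the 7 was 1825 to 2888 CPM in controls and 2123 to 2381 CPM in mutants, and most of it was Kcnc2. The other 6 summed to 732 to 927 CPM in controls and 426 to 481 CPM in mutants, with no overlap. Of 5 somatostatin markers, 3 were called higher and 0 lower, and their sum was 790.6 to 902.2 CPM in controls and 1313 to 1604 CPM in mutants. Among markers of other cells, 1 of 8 for glutamatergic neurons was called (Slc30a3, lower), and their sum was 233 to 314 CPM in controls and 139.9 to 209 CPM in mutants. Without Slc30a3 the other 7 overlapped, at 76.8 to 143 CPM and 81.9 to 135 CPM, and the median log2 fold change of the list was -0.04. The 5 tested astrocyte markers summed to 234.5 to 308 CPM in controls and 183 to 207 CPM in mutants, with 1 called lower (Slc4a4), and without Slc4a4 they overlapped, at 39.1 to 66.9 CPM and 44.2 to 49.9 CPM. Of the markers listed at 0, Gfap, P2ry12 and Dlx1, each lies wholly inside the span of another gene. The VIP list had 3 of 6 called higher (Cck, Tac2 and Npas1) and 1 lower (Chat), and the LAMP5 list had 1 of 5 higher (Sv2c) and 1 lower (Cplx3). Oligodendrocyte markers summed to 153 to 192 CPM in controls and 169 to 203 CPM in mutants, with 1 of 6 called higher (Mog). Microglial markers summed to at most 19.9 CPM and endothelial markers to at most 103 CPM in any library. The part of these shifts in the synaptotagmin results was not tested. The covariate fit given above used only the 8 glutamatergic markers, Slc30a3 among them, and does not address shifts in the other lists.

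The genes most like Syt2 and Syt1 were found by Pearson's r of log2 CPM over the 7 libraries among the 11786 genes that averaged 5 CPM or more, as a description only, since the libraries share group and depth differences. For Syt2 they were Tnfaip8l3, Abcc8, Hunk, Ankrd29 and Mypn, with r from 0.993 to 0.996. All 5 were called lower, which the choice by likeness to Syt2 largely fixes. Hunk, a protein kinase gene, fell from 181 ± 48.4 to 38.9 ± 1.49 CPM, or by 2.22 on the log2 scale. For Syt1 they were Bicra, Gm48728, Rlf, Lsamp and Gpc6, with r from 0.991 to 0.998. None of these 5 was called by edgeR, with adjusted p-values from 0.852 to 0.951, which the choice by likeness to Syt1 largely fixes too. Lsamp, like Syt1, varied among controls (2639 ± 1075 CPM, SD, n = 4) more than among mutants (2780 ± 240.3 CPM, SD, n = 3).

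The difference between the outermost controls of Syt1 went with gene length. The log2 ratio of control 4 to control 1 was -0.66 for Syt5 and -0.69 for Syt4, which span 7.78 and 9.60 kb, and 0.72 for Syt2, 0.72 for Syt9 and 0.99 for Syt1, which span 116, 178 and 513 kb. Spearman's rho between this ratio and span was 0.81 over the 10 genes and 0.60 over all tested genes, both across genes that share the same 2 libraries. Between span and the mutant effect on the log2 scale, rho was -0.30 over the 10 genes and 0.08 over all tested genes. With an offset for gene length fitted in each library, Syt2 kept a log2 fold change of -2.18, and Syt5, Syt10 and Syt17 were called at 0.98, 1.10 and 0.95.

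**Figure D5:**
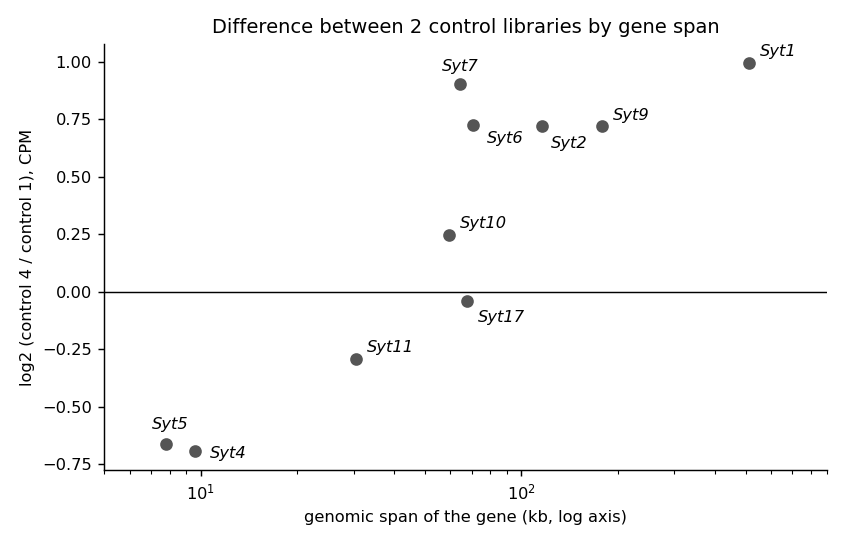
Log2 ratio of CPM in control 4 to control 1 against the genomic span of each of the 10 genes in kb on a log axis. The shortest genes, Syt5 and Syt4, lie at -0.66 and -0.69 and the longest, Syt1, at 0.99.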

How the data were processed

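The deposited values are whole-number counts of reads per gene, and the labels record no scaling of them. Per the submitters' processing notes, Bowtie2 2.5.3 and the builds mm10 and GRCm38 were used; the counting program is not given in the sources used here. Per the labels' protocols, cDNA was amplified with SMART-Seq v4, which has no molecular identifiers and does not mark strand. All 55450 identifiers were found in GENCODE M21. All 1287 protein-coding genes wholly inside another gene's span were at 0 in all 7 libraries, against 24.7% of 11728 genes that share no base. This held for the 681 nested genes without shared exon bases, as it would if whole spans were counted and reads in shared spans dropped. In the annotated transcripts of the 10 members, 0 words of 75 bases, the read length, also occur in another synaptotagmin.

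Counts were fitted in R 4.3.3 with edgeR 4.0.16 (filterByExpr, TMM, robust quasi-likelihood, group as the only term), which was tested on simulated data, and p-values were two-sided. The SE is the log2 fold change divided by the square root of F, and 95% intervals use the fit's t distribution. CPM were TMM-scaled, and TPM used the union of exons. DESeq2 1.42.0 and limma 3.58.1 were alternatives, beside other scaling factors and filters, a length offset, a covariate and libraries left out. Named genes were the members, called genes of the fixed lists, Thra, Pvalb and the 5 genes nearest in pattern to Syt1 and Syt2. The members and lists were chosen with earlier results of these data known.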

Additional observations from a re-analysis of the deposited data

Results flagged for a closer look

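A control library far from the other 3 was looked for in 16 values, the 15 tested synaptotagmin genes and the ratio of Syt2 to Syt1, and 2 had one. Chance gives about 1 in 20, or 0.8 of 16, but the 16 values come from the same controls and are not independent. In Syt2, control 4 lay apart with a gap to the nearest control of 0.857 of the controls' range (85.7 CPM against 52.0 to 56.9 CPM). In Syt9, control 4 lay apart with a gap of 0.932 of the range (5.89 CPM against 3.40 to 3.57 CPM). The ratio of Syt2 to Syt1 had no such library. Syt2 and Syt9 span 116 and 178 kb, and the ratio of control 4 to control 1 rose with span, as given above. Syt1, at 513 kb, was not among the 2. The part of gene length in these 2 values was not tested.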

How the results depend on the processing

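Under 10 alternative fits (other scaling factors, filters, tools, covariates and pairs of libraries left out), Syt2 kept its call at log2 fold changes from -2.18 to -2.02, Syt5 from 0.86 to 0.98, Syt10 from 1.09 to 1.34 and Syt17 from 0.95 to 1.11. The count of the 10 genes called was 2 (Syt2 and Syt10) when an absolute log2 fold change over 1 was asked as well, and 3 to 4 without single libraries. Syt9 was called with limma-voom (0.65). Without single libraries, Syt1 ran from -0.057 (without control 1) to 0.29 (without control 4), Syt11 from -0.15 to 0.010 (without mutant 6), Syt4 from 0.043 (without mutant 7) to 0.41 (without mutant 6), Syt6 from -0.33 to -0.07 (without control 4; -0.14 without mutant 7), Syt7 from -0.42 to -0.11 (without control 4), Syt10 from 0.97 to 1.24, Syt2 from -2.27 to -1.99 and the difference in the log2 ratio of Syt2 to Syt1 from -2.40 to -2.18.

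The count of all genes called, 1549, was 3147 with limma-voom, 2753 with the length offset, 2778 without controls 1 and 4, and 641 with an absolute log2 fold change over 1. It ran from 734 without mutant 7 to 2347 without control 4, and was 766 without mutant 6, 816 without mutant 8 and 1016 without control 3. The cause was not tested. Per genomic span, control levels were 68.5 TPM for Syt1, 9.83 for Syt2, 60.5 for Syt4, 8.17 for Syt6, 39.2 for Syt7, 0.42 for Syt9, 1.28 for Syt10, 168 for Syt11 and 13.0 for Syt17. With exon bases outside other genes' spans only, an alternative chosen after seeing the data, they were 55.1 TPM for Syt4, 232 for Syt11 and 39.5 for Syt17. No paired analysis was made. Controls are numbered 1 to 4 and mutants 6, 7, 8 and 10, so the groups share no number. Whether animals were paired is not given in the sources used here. With 38 to 134 reads per library for Syt10 and 45 to 81 for Syt9, depth limits the precision of both.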
